A study of Mus musculus with 2 samples.

Results

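Most of the genes described here encode the protein factors that start, extend and end translation on cytosolic ribosomes. Others encode proteins that bind or regulate these factors, and 4 Argonaute genes share their older symbols. They were chosen by symbol: every array probe whose platform gene symbol begins with Eif1 to Eif6, Eef1 or Eef2, or is Etf1, Gspt1 or Gspt2, with the Eif2ak kinase genes left out. This gave 86 probes for 60 genes, of 16637 named genes on the array. Of the 60 genes, 7 carried an older symbol on the platform. The 4 among them listed as Eif2c1 to Eif2c4 are now Ago1 to Ago4, which encode Argonautes, the proteins that hold small RNAs, and not translation factors. They were kept under the rule and are described apart at the end. All others are called translation factor genes below because of their symbols, including the Eif4ebp genes, Eif4enif1, Eef2k and Eef1e1.

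The samples were embryonic fibroblasts of mice, labelled Xbp1 knockout, taken on day 3 and on day 0 of adipogenic induction, with 1 array for each day. The knockout label is on both samples, and no cells with intact Xbp1 were analysed here. The sources used here do not give whether the cells came from 1 embryo or several. The day 3 cells had been given 5 µM troglitazone, a PPARγ agonist, 10 µg/ml insulin, 0.25 mM IBMX, which blocks cAMP breakdown, and 5 µM DXM over the 72 h since confluence, which defines day 0. With 1 sample for each day no difference below has a replicate check, none was tested, and "higher" and "lower" describe these 2 arrays only. In bulk RNA, fewer cells of a type and less RNA per cell cannot be told apart.

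Initiation begins when eIF2, loaded with GTP and initiator tRNA, joins the small ribosomal subunit together with eIF1, eIF1A, eIF3 and eIF5. The eIF4 factors bring the subunit to the cap of the mRNA, and the 4E-binding proteins block that step until the kinase mTORC1 phosphorylates them. Stress kinases such as PERK phosphorylate eIF2, which then inhibits its own exchange factor eIF2B. Elongation uses eEF1 and eEF2, and release uses eRF1 and eRF3. Insulin, which the induction medium holds, is a known activator of mTORC1.

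Intensities are given after quantile normalization, in arbitrary units, and differences as log2 of day 3 over day 0. Genes over 122 on 1 day or both, which is the median signal of the gene probes, count as detected. Before normalization the gene probes had a median intensity of 166 on day 3, against 78 on day 0, while empty spots centred on 0. Xbp1 itself read 13561 on day 3 and 20936 on day 0, and since the sources used here do not place its probe relative to the deleted part, that signal does not check the label. All 9 fibroblast markers were detected on each day, with summed signals of 216950 on day 3 and 214160 on day 0. Those sums could not show every change, since Dcn was saturated on both days and Vim on day 0, and single markers differed, with Col1a1 at 5849.5 on day 3 and 12227.5 on day 0 and Lum at 662.5 on day 3 and 218 on day 0. Of 5 adipocyte markers, 0 passed the threshold, with sums of 291.5 on day 3 and 62 on day 0. All 5 read higher on day 3, most of all Adipoq, at 120.5 on day 3 and 12 on day 0, where the 95th percentile of empty spots was 9 on day 3 and 7 on day 0 before normalization. Of the markers of other cell types, 2 of 5 leukocyte genes were above the threshold on day 3 and 3 of 5 on day 0, with sums of 3887.5 on day 3 and 1176 on day 0. Itgam made up most of that at 3556 on day 3 and 703.5 on day 0, Csf1r read 51.5 on day 3 and 269.5 on day 0, and Ptprc and Adgre1 were at no more than 10.5 on each. Endothelial genes summed to 632 on day 3 (1 of 4 above the threshold) and 435 on day 0 (2 of 4). Epithelial genes summed to 191 on day 3 (0 of 4) and 305.5 on day 0 (1 of 4). Skeletal muscle genes summed to 114 on day 3 and 119 on day 0 (0 of 4 on each). Their part in the results below was not tested.

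After quantile normalization most of the genes read lower on day 3 than on day 0, by modest amounts, whereas with no normalization 25 of 56 did and 48 of 56 were below the median of all genes. Of the 60 genes, 58 were detected, 55 of them on both days. The eIF2 γ-subunit gene of the Y chromosome, Eif2s3y (3 on day 3 and 12 on day 0), and Eif3j1 (4 on day 3 and 34.5 on day 0) stayed below the threshold. Among the 58, 44 had a difference below 0, that is 75.9%, against 48.4% of all 10656 detected genes. Their median was -0.42, also without the 4 Argonaute genes, and that of all detected genes was 0.03. At least 2-fold lower were 10 (17.2%, against 10.3% of all detected genes), and at least 2-fold higher was 1 (1.72%, against 12.8%). Of the 10, 8 were among the 54 genes called translation factor genes and the others were Ago1 and Ago2. The 8 include Eif4ebp2, Eif4e2 and Eef1e1, whose roles are given below. Signals under the threshold counted as read here. With such signals set to the threshold, 7 of the 58 were 2-fold lower, against 8.51% of all genes, and 1 was 2-fold higher, against 10.2%.

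**Figure D1:**
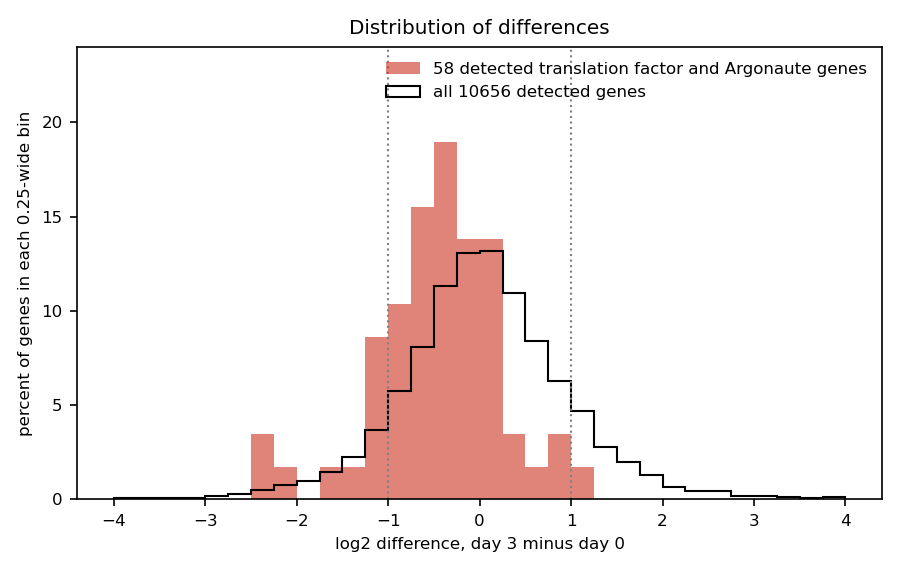
Share of genes (percent, vertical axis) in each bin of the log2 difference, day 3 minus day 0 (horizontal axis), for the 58 detected genes, 54 for translation factors and 4 for Argonautes (filled bars), and for all 10656 detected genes (black outline), with dotted lines at 2-fold. The filled bars have a median of -0.42 and the outline of 0.03 after quantile normalization, against 0.035 and 0.67 with no normalization.

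The same direction was seen among bright genes alone. Of the 58, 44 lay among the 5328 brighter detected genes by mean signal, and 36 of the 44 (81.8%) were below 0, against 49.5% of the 5328. Of the 44, 6 were 2-fold lower (13.6%, against 7.47%) and 0 were 2-fold higher (against 8.20%). The median of the 44 was -0.47, against 0.0043 for the 5328. The scatter of repeated control spots was taken within each array before normalization, and the variances of both days were added. The resulting SD for a difference was 0.36 to 0.42 by the median feature, and 0.64 to 0.87 pooled over features. It leaves out variation between arrays. Differences of either sign beyond the pooled SD were seen for 14 of the 58 genes (24.1%, against 32.4% of all detected genes), and beyond the median feature's SD for 35 (60.3%, against 59.5%). Of the 58, 32 differed by less than 1.5-fold (55.2%, against 54.9% of all detected genes).

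Of the 11 alternatives tried, median scaling over all gene probes and no normalization moved these counts the most. Under that median scaling, 32 of the 58 genes were 2-fold lower (against 24.3% of all genes) and 0 higher (against 7.78%), but the median of all detected genes was then -0.49. With no normalization, 3 of 56 were 2-fold lower (against 2.85% of all genes) and 5 higher (against 35.7%), the median of the members was 0.035, above 0, and that of all genes was 0.67. The members' median was then set against the median of all genes in the same setting. It was lower by 0.45 as reported and by 0.37 to 0.63 in the 11 alternatives, so this direction did not flip in any of these. Every role group below also had its median under that of all genes with each of the 5 scalings run. Those were quantile, 2 median scalings, cyclic loess and none. They are not all separate checks here or below. The 2 median scalings and no normalization differ by a constant per array, which nearly cancels relative to all genes. Differences below are after quantile normalization, and with no normalization those of the role groups' medians were nearer to 0 or above it.

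**Figure D2:**
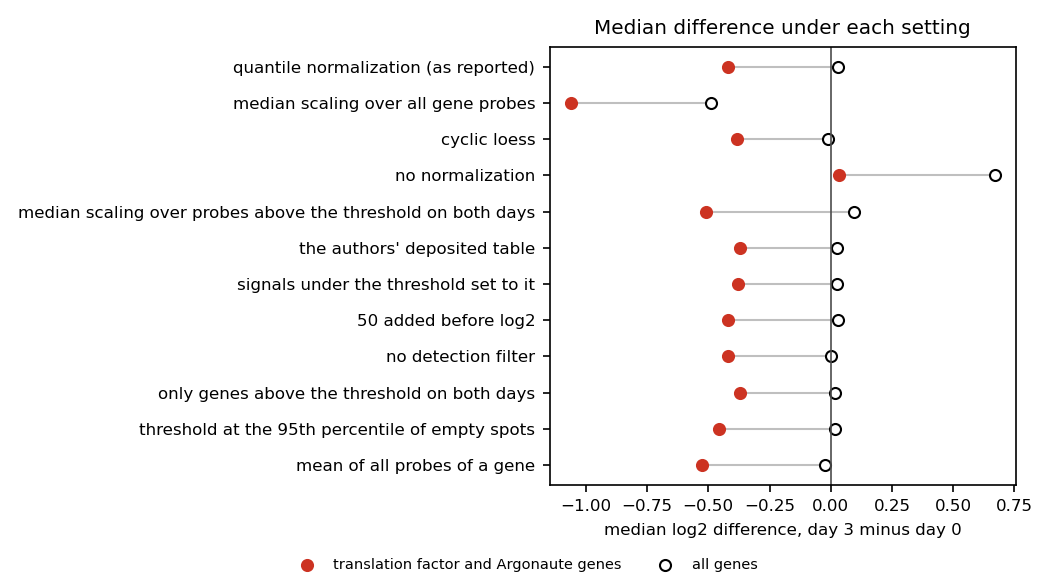
Median log2 difference, day 3 minus day 0 (horizontal axis), of the translation factor and Argonaute genes (filled) and of all genes (open) under the reported setting and the 11 alternatives (rows). The filled point lies left of the open one in every row, and with no normalization both lie right of 0.

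**Figure D3:**
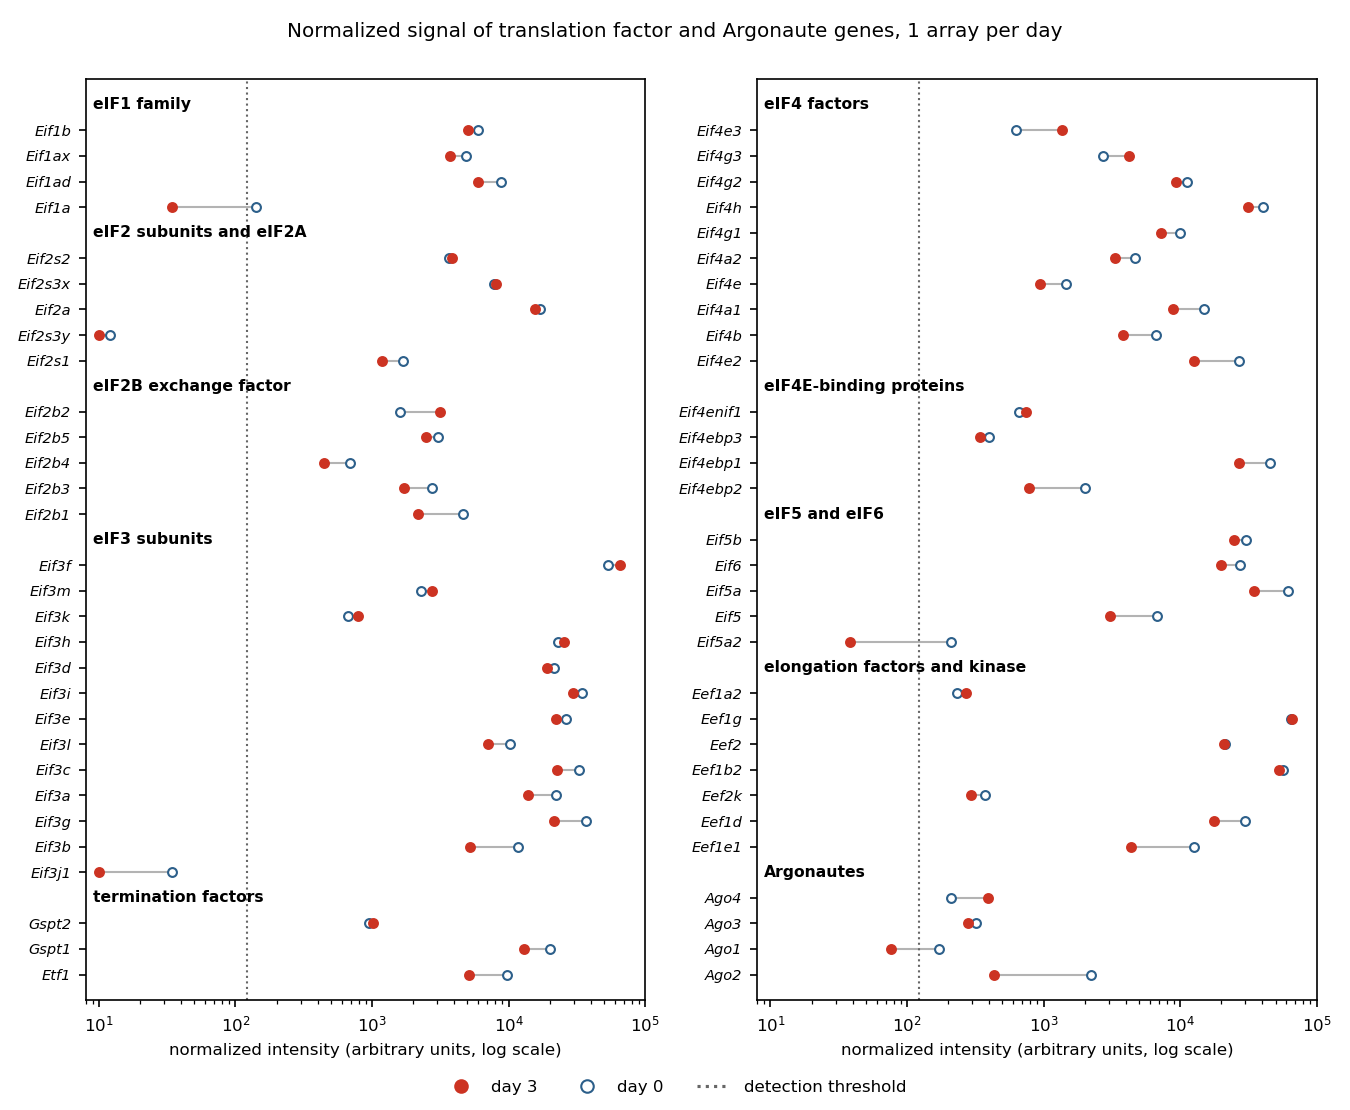
Normalized intensity (log axis, arbitrary units) of each of the 60 genes on day 3 (filled) and day 0 (open), 1 array per day, grouped by role, with signals under 10 drawn at 10 and the detection threshold of 122 dotted. Most filled points lie left of their open partner after quantile normalization, whereas with no normalization 25 of 56 would. The exceptions include Eif4e3, Eif4g3, Eif2b2 and Ago4.

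The promoters of these genes were examined because most members differed in 1 direction. The sequences are RefSeq windows from 250 bases before to 50 after an annotated start, build GRCm38.p6, and 43 of the 58 detected genes had at least 1. The motif CACGTG, a palindrome known as the E-box that MYC and MAX bind, was present in 12 of the 43 (27.9%), against 12.1% of the 8648 detected genes with a window and 8.09% of all 27025 genes with a window. The 12 with the motif had a median difference of -0.42 and the 31 without it -0.47, against -0.058 with it and 0.046 without it among all detected genes. Among the 8 that were 2-fold lower, 1 held it. Among the other 35, 11 held it. Eif3f (0.29), Eif3k (0.24), Eif1b (-0.24) and Eef2k (-0.33) also held it before the start, at sites not printed here. The printed genes all read lower on day 3 and so do not stand for every gene with the motif. Sites before the start of 7 genes follow, 5′ to 3′ on the gene's strand, with the motif in capitals, because they sit at the cap-binding complex, eIF5A and eEF2 genes discussed next. The stretches lie at chr3:138527180-138527233 (+) for Eif4e, chr16:20672649-20672702 (+) for Eif4g1, chr11:69672583-69672636 (-) for Eif4a1, chr5:134639476-134639529 (-) for Eif4h, chr11:69921431-69921484 (-) for Eif5a, chr3:28781111-28781164 (+) for Eif5a2 and chr10:81176564-81176617 (+) for Eef2.
Eif4e: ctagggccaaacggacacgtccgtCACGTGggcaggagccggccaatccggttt
Eif4g1: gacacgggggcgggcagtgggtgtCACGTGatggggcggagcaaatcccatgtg
Eif4a1: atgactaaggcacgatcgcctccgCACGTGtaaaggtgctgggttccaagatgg
Eif4h: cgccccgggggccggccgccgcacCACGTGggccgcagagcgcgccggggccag
Eif5a: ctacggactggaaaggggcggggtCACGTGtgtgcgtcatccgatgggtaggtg
Eif5a2: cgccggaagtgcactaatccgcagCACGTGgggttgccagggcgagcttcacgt
Eef2: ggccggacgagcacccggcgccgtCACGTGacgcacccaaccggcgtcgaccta

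Motifs of the unfolded protein response were rare in the same windows, searched on both strands. TGATGNAA, an element bound by ATF4 with C/EBP proteins, was found in 2 of the 43 genes (4.65%), Eef2k and Eif2s3x, against 2.71% of detected genes. TGACGTG, which ATF6 and XBP1 can bind, was found in 1 (2.33%), Eif3a, against 3.28%. No match of 1 motif overlapped a match of another in these windows. A match is a string of letters and not a shown binding site.

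In the eIF1 family, of which eIF1 and eIF1A guard start codon choice, all 4 detected members were below 0. Each detected member was also below the median of all genes with all 5 scalings. Eif1b, the member with the highest difference, read 5044 on day 3 and 5936.5 on day 0 (-0.24). Eif1ax (-0.39) and Eif1ad (-0.58) lay further down. Eif1a read 34.5 on day 3, below the threshold, and 142 on day 0, so it was at least 1.16-fold lower.

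None of the 4 detected genes for eIF2 subunits and eIF2A was 2-fold different. The α-subunit gene Eif2s1, which encodes the subunit that stress kinases phosphorylate, read 1191 on day 3 and 1675 on day 0 (-0.49), and its dimmer probe gave -1.45. The β-subunit gene Eif2s2, with the highest difference of the group, read 3826 on day 3 and 3665 on day 0 (0.06). Its other probe gave -0.40. The γ-subunit gene Eif2s3x gave 0.05 and Eif2a -0.12. Eif2s2 and Eif2s3x fell below 0 under both median scalings.

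The 5 genes of eIF2B, the complex that reloads eIF2 with GTP, did not move together. The regulatory α-subunit gene Eif2b1 was 2.11-fold lower, with 2181 on day 3 and 4608 on day 0. The β-subunit gene Eif2b2 was the opposite, at 3134.5 on day 3 and 1601 on day 0 (0.97, 1.96-fold higher). Eif2b3 (-0.69), Eif2b4 (-0.62) and Eif2b5 (-0.30), for the other subunits, lay between them. The group had a median of -0.62, and each of its genes had 1 probe.

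The eIF3 complex, the largest initiation factor and a scaffold on the small subunit, was represented by 12 detected genes with a median of -0.24. Eif3b, which encodes a core scaffold subunit, was the only one 2-fold lower, with 5192 on day 3 and 11635.5 on day 0 (-1.16). The other core subunit genes Eif3a (-0.67), Eif3g (-0.76), Eif3c (-0.53) and Eif3i (-0.23) were also below 0. Above 0 stood 4 genes, Eif3f, Eif3m (0.26), Eif3k (0.24) and Eif3h (0.15). Eif3f was saturated on day 3, where it read 65474.5, against 53667.5 on day 0. After quantile normalization it was thus at least 1.22-fold higher. It was above 0 in 9 of the 11 alternatives. With the median of every gene probe as the scale, Eif3f gave -0.58 and all 12 eIF3 genes were below 0. The other median scaling gave -0.03 for Eif3f, with 9 of the 12 below 0. Saturation on day 3 makes these Eif3f values lower limits too, so its direction there is not settled.

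Among the 10 eIF4 genes, which serve cap binding and unwinding, 8 were below 0 and the median was -0.47. The parts of the cap-binding complex eIF4F were each below 0 by 1.38-fold to 1.70-fold: the cap-binding protein gene Eif4e read 947.5 on day 3 and 1466 on day 0, the helicase gene Eif4a1 read 8885.5 on day 3 and 15063.5 on day 0, and the scaffold gene Eif4g1 read 7218.5 on day 3 and 9973 on day 0. The helicase cofactor genes Eif4b and Eif4h gave -0.80 and -0.37. Of these 5 genes, all but Eif4b have an E-box among the printed promoter stretches. Among all 43 detected genes with a window, the median was -0.42 with the motif and -0.47 without it. Both 2-fold members were relatives of Eif4e. Eif4e2, whose product binds the cap but represses translation, read 12689.5 on day 3 and 27069.5 on day 0 (-1.09, and -1.02 by its dimmer probe). Eif4e3, a divergent cap-binding protein, was the single gene of the 58 that was 2-fold higher, at 1356 on day 3 and 627.5 on day 0 (1.11). Its other probe was below the threshold on both days. Eif4g3, another scaffold gene, gave 0.63.

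Of the 4 detected genes for proteins that bind eIF4E, 1 was 2-fold lower and 3 were below 0. Eif4ebp2 was 2.57-fold lower, at 778 on day 3 and 1996 on day 0, and its other probe gave -1.47. Eif4ebp1 read 27137 on day 3 and 45262.5 on day 0 (-0.74), and a much dimmer probe gave -1.78. Eif4ebp3 read 343 on day 3 and 396.5 on day 0 (-0.21). Eif4enif1, a nuclear import partner of eIF4E, read 743.5 on day 3 and 660.5 on day 0 (0.17).

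By their brightest probes, all 5 genes of eIF5 and eIF6 were below 0. Their median of -0.84 was the lowest of the 10 role groups. All 5 were also below the median of all genes with the 5 scalings. Eif5, which encodes the GTPase-activating protein of eIF2, was 2.22-fold lower, with 3046.5 on day 3 and 6752 on day 0. Eif5a, a factor that carries the modified residue hypusine and relieves stalled ribosomes, gave -0.84 by its brightest probe, which read 34569.5 on day 3 and 62011.5 on day 0, and -1.96 and -1.89 by the other 2 probes. Its relative Eif5a2 read 38.5 on day 3, below the threshold, and 211.5 on day 0, at least 1.73-fold lower. Eif5b, a GTPase that joins the subunits, had the highest difference of the group at 24679 on day 3 and 30250 on day 0 (-0.29). Dimmer probes of Eif5b gave -0.41 and 0.16. Eif6, which keeps the large subunit from joining too early, gave -0.45.

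The 7 detected genes for elongation factors and their kinase had a median of -0.09, and 1 was 2-fold lower. Of the genes for the exchange factor that recharges eEF1A, Eef1b2 read 53468 on day 3 and 56791 on day 0, and Eef1g read 65470.5 on day 3, where it was saturated, and 64602.5 on day 0. A higher level of Eef1g could not have been seen. Eef1d, for another subunit, gave -0.75. Eef1a2, a tissue-restricted form of the GTPase that delivers tRNA, had the highest difference at 272 on day 3 and 231.5 on day 0 (0.23). Eef1e1 had the lowest and was 2.87-fold lower, with 4386.5 on day 3 and 12590 on day 0. Despite its name, its product is known mainly as a part of the complex of tRNA synthetases. Eef2, the translocase, depended on the probe. The probe with the highest mean signal gave 20936 on day 3 and 21229.5 on day 0 (-0.02), while the other 2 gave -1.34 and -1.37. Its inhibitory kinase gene Eef2k gave -0.33 and, by a dimmer probe, -1.54.

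Of the termination factor genes, Etf1, which encodes the release factor eRF1, read 5129 on day 3 and 9768 on day 0 (-0.93, 1.90-fold lower). Gspt1, which encodes its partner GTPase eRF3, gave -0.64, and the related Gspt2 read 1022 on day 3 and 955 on day 0 (0.10).

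The Argonaute genes held the largest difference among the members above the threshold on both days. Ago2, the Argonaute that can cut its target RNA, was 5.15-fold lower, with 436 on day 3 and 2243.5 on day 0, and its other probe gave -2.39 against -2.36. Ago1 was at least 1.42-fold lower (77 on day 3, below the threshold, and 173 on day 0), Ago3 gave -0.18, and Ago4 was the only one above 0, at 392 on day 3 and 209 on day 0 (0.91). Without the 4 Argonaute genes, 8 of 54 translation factor genes were 2-fold lower and the median was -0.42.

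Probes of the same gene often gave differences of unequal size. Of 16 genes with several detected probes, 12 had all of them below 0, 4 had both signs and 0 had all above. Those with both signs were Eif2s2, Eif4a2, Eif4g2 (-0.27 by the brightest and 0.27 by the other) and Eif5b. The matching shares of all genes are not given here, so these counts describe the members only. The probes differed by more than 1 on the log2 scale for 6 genes: Eif4a2 (-0.47 by the brightest and 1.26 by the other), Eif3a (-0.67 and -2.23), Eef2, Eef2k, Eif5a and Eif4ebp1. In 11 of the 16 genes the other probes averaged lower than the brightest. The same held for 64.5% of all 1968 genes with several detected probes. With the mean of all probes in place of the brightest, 14 of 55 detected genes were 2-fold lower (against 11.0% of all genes), 0 were 2-fold higher (against 11.5%), and the median was -0.53.

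**Figure D4:**
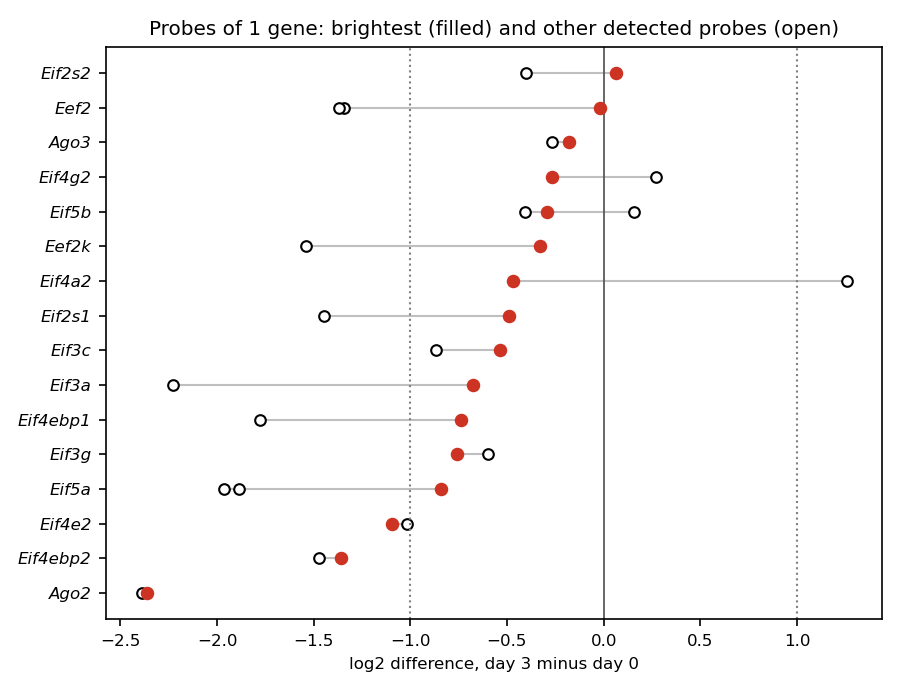
Log2 difference, day 3 minus day 0 (horizontal axis), of every detected probe of the 16 genes that have several, with the brightest probe filled and the others open, and dotted lines at 2-fold. The probes of Ago2, Eif4ebp2 and Eif4e2 nearly coincide, while those of Eif4a2, Eif3a and Eef2 lie more than 1 unit apart.

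Genes that control these factors were mixed. Of the 9 genes for eIF2 kinases and the eIF2 phosphatase, 0 were 2-fold different by the brightest probe. Of all detected genes, 12.8% were 2-fold higher and 10.3% lower. Other detected probes gave -2.54 for Ppp1cc, -0.83 for Ppp1cb, -0.0086 for Ppp1r15b and 0.20 for Eif2ak1. By the brightest probes the median was 0.25. That median lay between -0.0087 and 0.27 relative to all genes over the 5 scalings. Among 15 detected genes of mTORC1 and its links to translation, 4 were 2-fold higher and 1 lower (median 0.37, against 0.03 for all detected genes), where 12.8% of all detected genes were 2-fold higher and 10.3% lower. Relative to all genes, 2 to 4 were 2-fold higher, where 11.7% to 16.5% of all genes were, and the median was 0.21 to 0.37 over the 5 scalings. Mtor, the kinase itself, read 4660 on day 3 and 1490.5 on day 0 (1.64). Its activator gene Rheb read 389.5 on day 3 and 174.5 on day 0 (1.16). Mknk2, which encodes a kinase that phosphorylates eIF4E, read 4758 on day 3 and 2236.5 on day 0 (1.09). Ddit4, whose product inhibits mTORC1, read 9942 on day 3 and 4882 on day 0 (1.03). Rps6kb1, which encodes the S6 kinase, was lower, at 1560 on day 3 and 4132 on day 0 (-1.41). These counts use the brightest probes, and other detected probes gave -1.26 for Tsc1, -0.81 for Larp1, -0.55 for Rptor and 0.68 for Pdcd4. Of 14 other cofactor genes, Pabpc1 among them, 0 were 2-fold higher by the brightest probes (against 12.8% of all detected genes). By the same probes 1 was lower (7.14%, against 10.3%). The lower gene was Dohh, at 3012 on day 3 and 6716.5 on day 0 (-1.16). Its product completes the hypusine of eIF5A. The brightest probe of Pabpc1, the poly(A)-binding protein gene, was saturated on day 3 and on day 0 and so gives no difference. Its other probes gave -1.83 and -1.65. Further detected probes of these cofactor genes gave -1.41 for Abce1, -1.26 for Hbs1l, and -0.66 and -0.35 for Abcf1. For Paip2b they gave -0.77 and -0.84, against 0.76 by the brightest.

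Other parts of the translation machinery are given beside these for comparison, with no test. All 17 detected genes for cytosolic tRNA synthetases were below 0 (9 with no normalization), against 48.4% of all detected genes after quantile normalization. Their median was -0.46, and 3 were 2-fold lower (17.6%, against 10.3%): Iars (157.5 on day 3 and 704.5 on day 0, -2.16), Wars (849 on day 3 and 2049 on day 0, -1.27) and Tars (1168.5 on day 3 and 2349.5 on day 0, -1.01). Each of the 17 was also below the median of all genes with all 5 scalings. Of 23 detected genes with Rpl or Rps symbols for cytosolic ribosomal proteins, 5 were saturated on both days and so give no difference, and Rpl23 was saturated on day 3. Of the other 17, 13 were below 0 (4 with no normalization), against 48.4% of all detected genes after quantile normalization, with a median of -0.18. Rps19 alone was 2-fold lower (170.5 on day 3 and 814.5 on day 0, -2.26), where 10.3% of all detected genes were.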

How the data were processed

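Single-colour Cy5 arrays of 2 samples were used, 1 for each day. Per the labels' protocols, 1 µg of total RNA was amplified and labelled by Phalanx. The authors deposited 1 linear intensity per spot (39200 spots, 29922 gene probes). Their background appeared to be subtracted, since empty spots had a median of 0. The sources used here do not name the image software. The authors' series table held intensity values for 11482 probes, ranked as in the per-sample tables, with 99.8% of sorted values within 1% between days and medians of 1414 on both. It served as an alternative.

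Gene probes were quantile normalized with limma 3.58.1 in R 4.3.3, set to at least 10, and log2 was taken. The steps were tested on simulated data. Symbols came from the platform annotation, updated through a table of GRCm38.p6. The brightest probe by mean log2 signal stood for a gene. Signals of 65000 or more were called saturated. Where 1 day was below the threshold or saturated, the fold is a lower bound. Control features with 5 or 6 spots gave the repeat-spot SD, which leaves out variation between arrays and between cultures. The number of arrays limits the precision.

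The members, lists and alternatives were chosen with earlier results of these data known. The naming rule took detected members with a 2-fold difference and the highest and lowest of each of the 10 role groups (22 genes), and 2-fold genes of the pathway lists. Values of other members, the second probes, Pabpc1, the tRNA synthetases, the ribosomal proteins and the promoter motifs were chosen after values were seen.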

Additional observations from a re-analysis of the deposited data

How the results depend on the processing

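The main values were 10 genes 2-fold lower, 1 higher and a median of -0.42. The count of lower genes was 32 when arrays were scaled to the median of all gene probes, 3 with no normalization, and 7 to 14 in the other 9 alternatives. The count of higher genes was 0 under that median scaling and with the mean of all probes, 5 with no normalization, and 2 under median scaling over probes above the threshold on both days and in the authors' deposited table. The median was -1.06 under the first of these, -0.53 with the mean of all probes and 0.035 with no normalization, where its sign turned. No normalization and both median scalings differ from each other by a constant per array, so relative to all genes they are not separate checks. The median of all genes moved to -0.49 under median scaling over all gene probes and to 0.67 with no normalization. Relative to it, 11 genes were 2-fold lower (against 10.1% of all genes) and 2 higher (against 15.1%) under median scaling, and 13 lower (against 10.5%) and 2 higher (against 16.5%) with no normalization. Eef1e1, Eif2b1, Eif3b, Eif4ebp2, Eif5 and Ago2 were 2-fold lower relative to all genes in all 11 alternatives, and Eif4e2 in 10. The calls of Eif1a, Eif5a2 and Ago1 rested on day 3 signals below the threshold and were lost when these were set to it. Leaving out the 2 genes saturated on day 3, an alternative added after the data were seen, gave a median of -0.46 and left both counts as they were. No paired analysis was possible because each day had 1 sample.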
